A study of Bos taurus with 46 samples.

Results

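Transcripts of receptors that guide phagocytes to sites of inflammation were followed in the circulating leukocytes of pregnant heifers. The list held 9 genes, chosen by name: *C5AR1*, *C5AR2*, *C3AR1*, *PTAFR*, *FPR1*, *FPR2*, *LTB4R*, *CXCR1* and *CXCR2*. Of these, 7 were among the 30675 genes of the NCBI count table, and the symbols *FPR1* and *FPR2* were not in it. The list was built around *C5AR1* and *PTAFR* because of their change from D55 to D105 in the AI group, so the day change in AI is given as a description without a test.

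Blood of 23 Angus crossbred heifers in the second year of life was taken on day 55 (D55) and day 105 (D105) of pregnancy, and each sample gave 1 RNA library (46 in all). Conception was by artificial insemination (AI, n = 8) or by transfer of in vitro produced (IVP) embryos. The IVP heifers were divided by whether the fetus weighed less than (IVP-Normal, n = 6) or at least (IVP-LOS, n = 9) a high percentile of the AI fetal weights, LOS being large offspring syndrome. All heifers had been synchronized with a progesterone insert and prostaglandin, and IVP embryos came from Angus or Angus-cross oocytes fertilised by a single Brahman bull and cultured with serum. IVP heifers received 2 embryos each, and 604 and 664 carried the 2 largest IVP-LOS fetuses.

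The experiment ran over several seasons and the labels give no sampling dates. For heifers whose samples clustered together, the paper gives winter for the D55 blood and summer for the D105 blood. A change of season between the samples of a heifer therefore cannot be told apart from the day of pregnancy. By the labels, all D55 libraries and the D105 libraries of IVP-Normal belonged to a set named New (29 libraries), whereas the D105 libraries of AI and IVP-LOS belonged to a set named BACKUP (17 libraries). Day and set therefore cannot be told apart within AI or within IVP-LOS, but the IVP-Normal comparison lay within a single set. Between 18692653 and 24502012 reads per library fell on genes, and no pair of libraries was identical. The D105 libraries of 604 and 664 had the lowest totals and the highest shares of reads on no gene, 38.0% and 36.1%.

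Leukocyte genes were abundant, with a mean of 2112 CPM for *PTPRC*, the CD45 antigen, and of 1145 CPM for the B cell gene *MS4A1*. CPM are read counts brought to a common library size and scaled for composition by TMM, and levels are compared between libraries for 1 gene at a time, not between genes. Of 10 neutrophil markers, 9 were in the table (*CSF3R* was not). *CATHL4* had 0 reads in 45 of 46 libraries, and *MMP9* and *LTF* had medians of 0.59 CPM and 0.26 CPM on D55 in IVP-Normal.

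The receptors studied here are G protein-coupled receptors of neutrophils, monocytes and related cells. They bind complement fragments (*C5AR1*, *C5AR2*, *C3AR1*), the lipid mediators platelet-activating factor (*PTAFR*) and leukotriene B4 (*LTB4R*), or CXC chemokines such as CXCL8 (*CXCR1*, *CXCR2*). Ligand binding activates Gi proteins and leads to directed migration, degranulation and oxidant release, after which kinases and arrestins silence the receptor. C5AR2 is the exception, as it couples poorly to G proteins.

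*C5AR1*, which encodes the main receptor of the anaphylatoxin C5a, was higher on D105 than on D55 in 15 of 15 IVP heifers. It was also higher in the 8 AI heifers, whose change chose the gene. In IVP-Normal its level had a lowest, median and highest value of 13.7, 36.0 and 86.9 CPM on D55 and of 130, 270 and 1085 CPM on D105. Every D105 library of IVP-Normal lay above every D55 library. In IVP-LOS the same 3 values were 9.64, 32.1 and 82.4 CPM on D55 and 66.0, 120 and 915 CPM on D105. Here 8 of 9 D105 libraries exceeded the highest D55 library, and heifer 557 stayed below it. In AI the values were 28.0, 50.5 and 62.3 CPM on D55 and 223, 327 and 455 CPM on D105, without overlap.

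Ordered by median, *C5AR1* was highest in AI on D105, followed by IVP-Normal on D105, IVP-LOS on D105, AI on D55, IVP-Normal on D55 and IVP-LOS on D55. The ranges of neighbouring groups in this order overlapped except for IVP-LOS on D105 and AI on D55. AI values chose the gene, so the rank of the AI groups is a description only.

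*C5AR2*, the second C5a receptor, was higher on D105 in 22 of 23 heifers and fell slightly in 557, from 6.54 to 6.05 CPM. In IVP-Normal the lowest, median and highest values were 3.54, 7.48 and 24.1 CPM on D55 and 24.3, 67.9 and 182 CPM on D105. In IVP-LOS they were 3.24, 6.54 and 24.0 CPM on D55 and 5.64, 25.8 and 246 CPM on D105. The days did not overlap in IVP-Normal, whereas in IVP-LOS the D105 libraries of 557, 604, 664 and 512 remained below the highest D55 library, that of 616. In AI, *C5AR2* ranged from 4.26 to 11.7 CPM on D55 and from 25.2 to 138 CPM on D105.

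*PTAFR*, which encodes the receptor of platelet-activating factor, was higher on D105 in 14 of 15 IVP heifers. It was also higher in the 8 AI heifers, whose change chose the gene. In IVP-Normal the lowest, median and highest values were 38.3, 58.5 and 73.7 CPM on D55 and 85.4, 185 and 857 CPM on D105. In IVP-LOS they were 33.7, 53.1 and 86.1 CPM on D55 and 28.1, 109 and 531 CPM on D105. The days were separate in IVP-Normal and overlapped in IVP-LOS, in which 557 went from 33.7 to 28.1 CPM. In AI, *PTAFR* ranged from 45.0 to 79.2 CPM on D55 and from 151 to 332 CPM on D105.

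The chemokine receptor genes *CXCR1* and *CXCR2*, whose products bind CXCL8, were higher on D105 in all 23 heifers. *CXCR1* in IVP-Normal had a lowest, median and highest value of 0.78, 4.12 and 34.4 CPM on D55 and of 50.5, 93.6 and 403 CPM on D105. In IVP-LOS these were 0.16, 1.22 and 43.5 CPM on D55 and 3.99, 37.7 and 342 CPM on D105. The D55 level of *CXCR1* rested on few reads in some libraries, down to 4 reads in heifer 656, so that the 437-fold ratio of that heifer is imprecise.

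*CXCR2* in IVP-Normal had values of 3.53, 16.5 and 75.6 CPM on D55 and of 112, 209 and 788 CPM on D105. In IVP-LOS they were 3.43, 10.7 and 83.6 CPM on D55 and 17.7, 95.3 and 852 CPM on D105. For both genes the days were separate in IVP-Normal and in AI and overlapped in IVP-LOS. The median AI level went from 2.75 to 135 CPM for *CXCR1* and from 12.98 to 346 CPM for *CXCR2*. The 2 genes are paralogs that lie close together, and reads that match both could have been divided between them or dropped. Their separate values are therefore less certain than their shared direction.

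*C3AR1*, the receptor gene of the anaphylatoxin C3a, did not share this course and was lower on D105 in 19 of 23 heifers. Its median went from 7.44 to 6.53 CPM in IVP-Normal, from 10.4 to 7.39 CPM in IVP-LOS and from 10.8 to 8.17 CPM in AI, with wide overlap. *LTB4R*, the gene of the high-affinity leukotriene B4 receptor, was lower on D105 in 14 heifers and higher in 9. Its median went from 3.40 to 3.01 CPM in IVP-Normal, from 3.05 to 2.54 CPM in IVP-LOS and from 3.99 to 3.87 CPM in AI. *LTB4R* was counted with 8 to 162 reads per library and *C3AR1* with 18 to 640 reads, against 239 to 22792 reads for *C5AR1*.

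**Figure D1:**
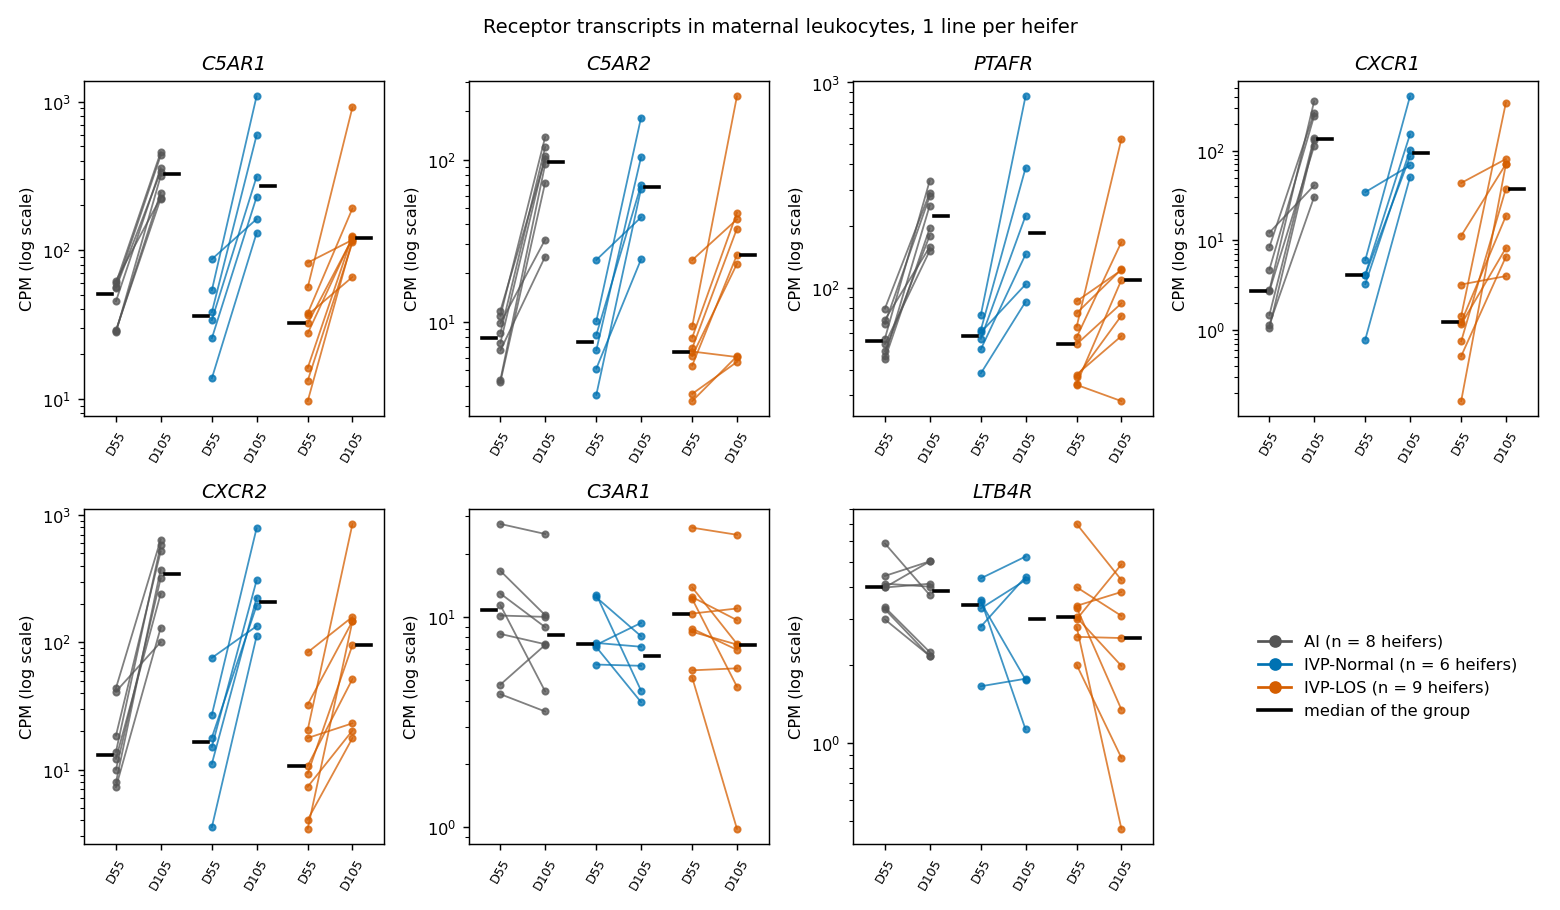
CPM on a log scale for 7 receptor genes on D55 and D105, with 1 line per heifer (AI grey, IVP-Normal blue, IVP-LOS orange) and black bars for group medians. *C5AR1*, *CXCR1* and *CXCR2* rise in all 23 lines, *C5AR2* and *PTAFR* in 22 of 23, and *C3AR1* and *LTB4R* have lines in both directions. The rise of the AI lines chose *C5AR1* and *PTAFR*.

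Whether levels differed between days beyond the spread between heifers was tested with the edgeR quasi-likelihood test across all genes, and an FDR of at most 0.05 was called. In IVP-Normal, 5 of the 7 receptor genes were called higher on D105, where 2.27% of the 15248 genes tested were called higher and 2.45% in either direction. The log2 fold changes were 3.31 for *C5AR1* (SE 0.58, FDR 0.00837), 3.08 for *C5AR2* (SE 0.53, FDR 0.0081), 2.39 for *PTAFR* (SE 0.50, FDR 0.0205), 4.03 for *CXCR1* (SE 0.82, FDR 0.0173) and 3.55 for *CXCR2* (SE 0.69, FDR 0.0137). *C3AR1* (log2 fold change -0.46, SE 0.26, FDR 0.489) and *LTB4R* (-0.06, SE 0.37, FDR 0.970) were not called. The same 5 genes were those whose D105 libraries all lay above all D55 libraries in IVP-Normal, which held for 1.88% of genes tested. In AI the days were also separate for these 5 genes (1.76% of genes), the contrast that chose the list and in which 9.95% of genes were called. In IVP-LOS they were separate for 0 of 7 (0.0857% of genes).

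In fits without a block for heifer, these calls in IVP-Normal, with 6 heifers, depended on single animals. All 5 were kept without 519 and without 669. Without 560, *C5AR1* (FDR 0.0446) and *C5AR2* (0.0445) were kept, and *PTAFR* (0.0633), *CXCR1* (0.0749) and *CXCR2* (0.0635) were lost. Without 628, *C5AR1* (0.0281), *C5AR2* (0.0348) and *PTAFR* (0.0380) were kept, and *CXCR1* (0.0893) and *CXCR2* (0.0631) were lost. Without 633, *C5AR2* (0.0484) was kept, and *C5AR1* (0.0542), *PTAFR* (0.101), *CXCR1* (0.0797) and *CXCR2* (0.0703) were lost. Without 688 none was kept, with FDR from 0.0518 for *C5AR1* to 0.0948 for *CXCR1*. The log2 fold changes remained positive throughout, between 1.83 (*PTAFR* without 628) and 5.45 (*CXCR1* without 669). With heifer as a block all 5 were called, but single heifers were not left out of that fit. Whether the calls depend on single animals once days are paired was therefore not tested.

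In IVP-LOS, *C5AR1* was the only receptor gene called (log2 fold change 2.61, SE 0.53, FDR 0.0492), where 0.198% of the 15163 genes tested were called higher and 0.251% in either direction. The estimates were 2.60 for *C5AR2* (SE 0.68, FDR 0.0989), 1.45 for *PTAFR* (SE 0.42, FDR 0.144), 3.35 for *CXCR1* (SE 1.04, FDR 0.168) and 3.01 for *CXCR2* (SE 0.80, FDR 0.105). *C3AR1* had -0.39 (FDR 0.757) and *LTB4R* -0.41 (FDR 0.704). The other tools called more of them: edgeR's likelihood ratio test called these 4 and *C5AR1*, and DESeq2 called *C5AR1*, *C5AR2*, *PTAFR* and *CXCR2*.

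The *C5AR1* call in IVP-LOS was kept without 616 (FDR 0.0238) or 637 (0.0400). It was lost without 512 (0.153), 557 (0.0666), 602 (0.0924), 604 (0.107), 656 (0.119), 663 (0.0853) or 664 (0.0932), and without both 604 and 664 (0.148). Without 616, *CXCR1* (0.0388) and *CXCR2* (0.0498) were also called. Heifer 637 had the highest D105 level in IVP-LOS of each of the 5 genes called in IVP-Normal. Without it the log2 fold change was 1.94 for *C5AR1*, 1.62 for *C5AR2*, 0.90 for *PTAFR*, 2.28 for *CXCR1* and 1.98 for *CXCR2*. These fits also had no block for heifer. With the block *C5AR1* was called with all heifers and without 637, an alternative chosen after the data were seen.

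**Figure D2:**
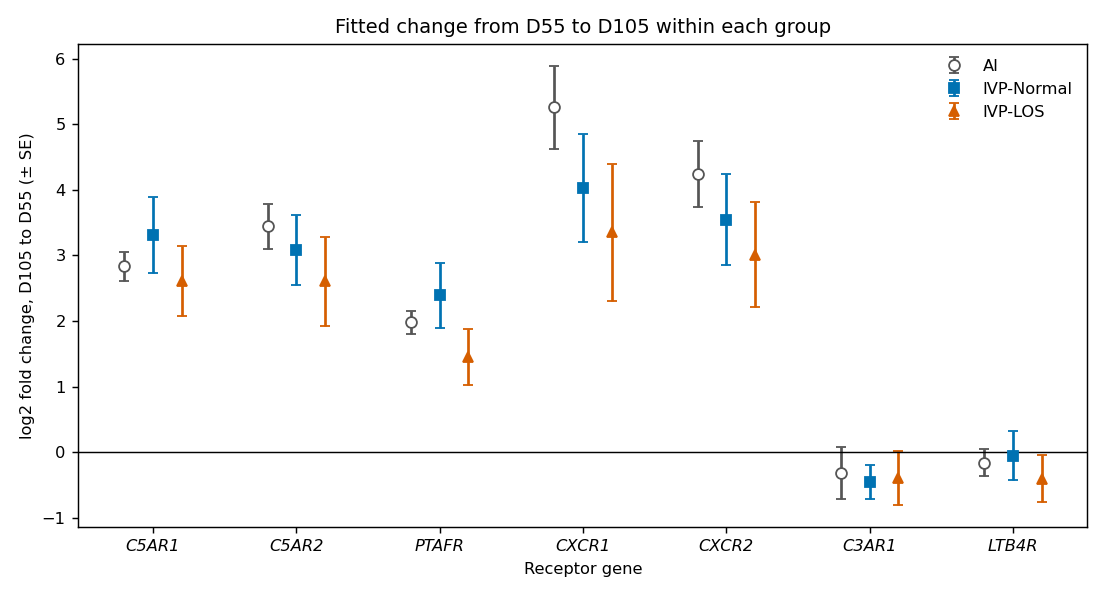
Log2 fold change from D55 to D105 with its SE for each receptor gene, fitted within AI (open circles, description only), IVP-Normal (blue squares) and IVP-LOS (orange triangles). Estimates for *C5AR1*, *C5AR2*, *PTAFR*, *CXCR1* and *CXCR2* lie above 0 in every group, and those of *C3AR1* and *LTB4R* lie between -0.46 and -0.06.

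Whether IVP-LOS and IVP-Normal differed in the day change was tested directly. None of the 7 receptor genes was called, and 0.0% of 16181 genes were (0 by edgeR's quasi-likelihood test, 134 at an unadjusted p under 0.05, and 1 by DESeq2). The differences, IVP-LOS minus IVP-Normal, were -0.72 (SE 0.78) for *C5AR1*, -0.96 (SE 0.67) for *PTAFR*, -0.49 (SE 0.92) for *C5AR2*, -0.69 (SE 1.37) for *CXCR1* and -0.55 (SE 1.09) for *CXCR2*. This fit had no block for heifer, so its errors include the spread between heifers. With errors of this size, differences of about the fitted magnitude could not be detected in it. With heifer as a block the quasi-likelihood test also called 0 of 16181 genes, with 449 at an unadjusted p under 0.05.

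IVP-LOS and IVP-Normal were also compared on each day. No receptor gene was called on D55 or on D105, and neither was any other gene (0.0% of 15452 and of 15484). On D105 the log2 fold changes, IVP-LOS relative to IVP-Normal, were -0.999 (SE 0.59) for *C5AR1* and -1.06 (SE 0.59) for *PTAFR*. On D55 they were -0.27 (SE 0.45) and -0.08 (SE 0.22). On D105 these groups also differed in library set, and group and set cannot be told apart there. Unadjusted p under 0.05 was found for 802 genes on D55 and 501 on D105, and DESeq2 called 3 and 13 genes.

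Against AI, no gene was called in IVP-Normal or IVP-LOS on either day by the quasi-likelihood test (0.0% in each of the 4 comparisons). On D105 the medians of *C5AR1*, *PTAFR*, *CXCR1* and *CXCR2* were highest in AI and lowest in IVP-LOS, with overlapping ranges. AI values chose *C5AR1* and *PTAFR*, so the rank of AI for them is a description only. AI and IVP-Normal also differed in library set on D105, and group and set cannot be told apart there. Unadjusted p under 0.05 was found for between 880 and 1522 genes in these comparisons, and DESeq2 called 1 to 43.

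Individual heifers differed widely in the size of the change. The *C5AR1* ratio of D105 to D55 ranged from 1.86 (669) to 20.2 (628) in IVP-Normal, from 1.42 (616) to 16.3 (637) in IVP-LOS and from 3.62 (647) to 11.3 (648) in AI. The heifers with the smallest *C5AR1* ratio in each group, 669, 616 and 647, had the highest D55 level of *CXCR1* in their group, at 34.4, 43.5 and 12.2 CPM. They also had the highest D55 level of *C5AR1*, at 86.9, 82.4 and 62.3 CPM. Their D105 levels of *C5AR1* were 162, 117 and 226 CPM, within the range of their groups. The D55 level of *C5AR1* is the denominator of its ratio, so a high D55 level lowers the ratio by calculation. *CXCR1* followed *C5AR1* on D55 (r = 0.71), so its place in these heifers is not a separate result. AI values chose *C5AR1*, and those of 647 are a description only.

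**Figure D3:**
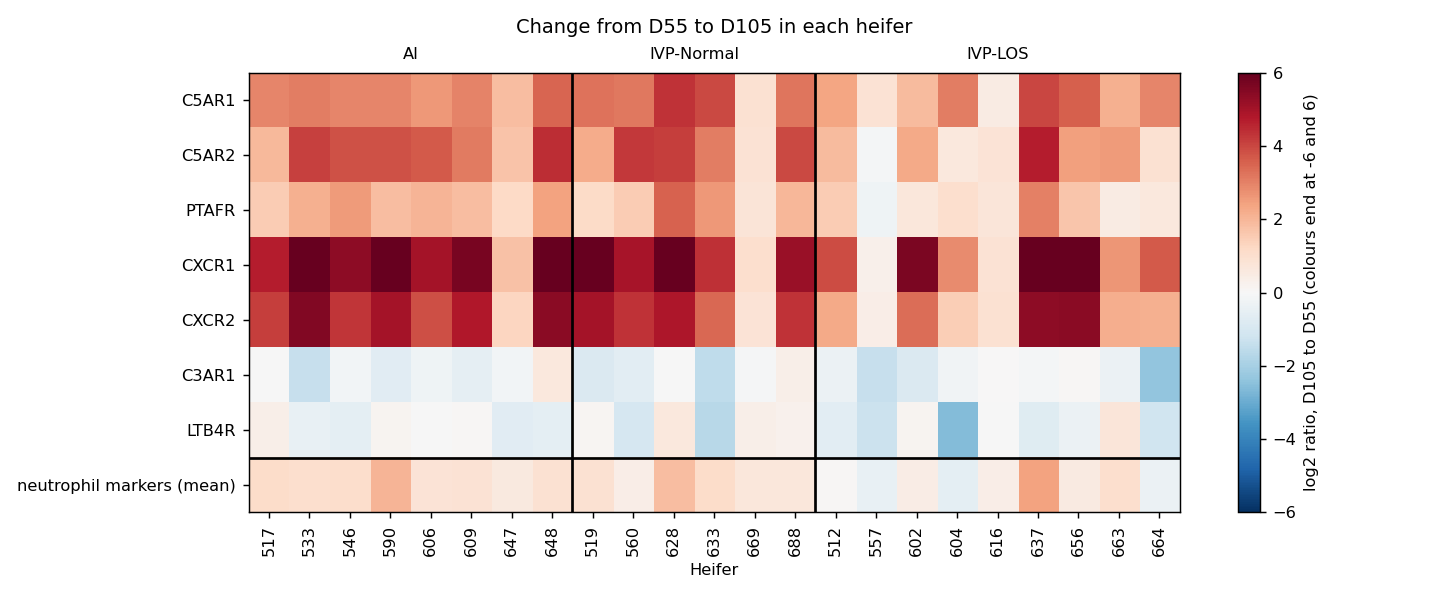
Log2 ratio of D105 to D55 in each of 23 heifers (columns, by group) for the 7 receptor genes and for the mean of 9 neutrophil markers (bottom row). Heifers 647, 669, 616 and 557 have pale columns, whereas 628 and 637 are dark for *C5AR1*, *C5AR2*, *PTAFR*, *CXCR1* and *CXCR2*.

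In bulk RNA, fewer cells of a type and less RNA per cell cannot be told apart, so marker genes of the cells that carry these receptors were measured in the same libraries. Of 8 neutrophil markers tested in IVP-Normal, 3 were called higher on D105: *S100A9*, a calgranulin subunit (log2 fold change 1.46, FDR 0.0325), the gelatinase *MMP9* (3.40, FDR 0.00755) and *LTF*, encoding lactoferrin (2.09, FDR 0.016). With heifer as a block, 6 of the 8 were called. The call of *MMP9* was kept without any single heifer, *LTF* was lost without 560 (FDR 0.0749), 628 (0.0752) or 688 (0.0518), and *S100A9* was lost without 560 (0.0605), 628 (0.0975), 633 (0.146), 669 (0.0540) or 688 (0.0806). In IVP-LOS 0 of 7 were called, and DESeq2 called 1 (*MMP9*). The summed level of the 9 markers, of which *CATHL4* was near 0, had a lowest, median and highest value of 397, 785 and 1076 CPM on D55 and of 882, 1479 and 3616 CPM on D105 in IVP-Normal. It was 485, 994 and 1535 CPM on D55 and 306, 916 and 11210 CPM on D105 in IVP-LOS, and 620, 1027 and 1486 CPM on D55 and 1202, 1904 and 4367 CPM on D105 in AI.

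The median log2 fold change in IVP-Normal was 3.08 over the 7 receptor genes, 1.199 over the neutrophil markers tested and -0.03 over all genes. To set the receptors against the markers in 1 library, the mean log2(CPM + 1) of the 9 markers was subtracted from that of each receptor gene. At this pseudocount *CATHL4*, *LTF* and *PGLYRP1*, with mean levels below 2 CPM, hardly move the reference, which lowers its change. On this scale *C5AR1* was higher on D105 in 15 of 15 IVP heifers, with a median change of 2.26 (0.12 to 3.61). *C5AR2* was higher in 15 of 15 (median 1.62), *CXCR1* in 15 of 15 (median 3.07), *CXCR2* in 15 of 15 (median 2.29) and *PTAFR* in 14 of 15 (median 0.94). *C3AR1* was higher in 1 of 15 (median -0.97) and *LTB4R* in 0 of 15 (median -0.52). Against the abundant calgranulins *S100A8*, *S100A9* and *S100A12* alone, *C5AR1* (median 2.05) and *CXCR1* (3.58) were higher in 15 of 15, *C5AR2* (1.78) and *CXCR2* (2.55) in 14 and *PTAFR* (0.97) in 12. The part of cell numbers in the change was not tested further, and markers of 1 cell type need not keep a fixed level per cell.

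Of the 23 D105 libraries, 10 had a summed neutrophil marker level within the range of the D55 libraries, 397 to 1535 CPM. In those 10, *C5AR1* ranged from 66.0 to 315 CPM (median 146), and 9 lay above the highest D55 library (86.9 CPM). For *CXCR2* 8 of 10 lay above the highest D55 library (83.6 CPM), and for *PTAFR* 7 of 10 (86.1 CPM). For *C3AR1* and *LTB4R* this held in 0 of 10. The share of all genes with such counts was not computed, so these counts are a description. The 10 included the AI libraries of 533 and 648, the latter at 315 CPM of *C5AR1*, and AI values chose *C5AR1* and *PTAFR*. The sum rested largely on *S100A12*, *S100A9* and *S100A8*, with means over all libraries of 960, 295 and 139 CPM. Other neutrophil markers, such as *MMP9* and *LTF*, weigh little in it. Libraries alike in the sum need not be alike in neutrophil content, and the part of cell numbers was not tested.

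**Figure D4:**
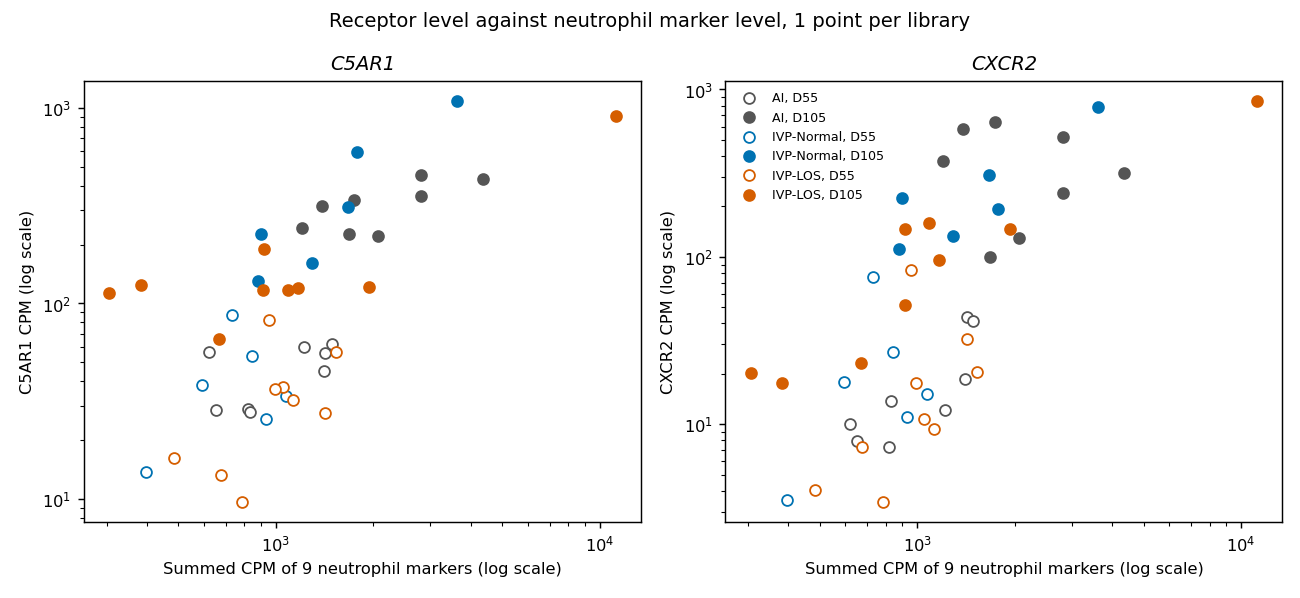
*C5AR1* (left) and *CXCR2* (right) in CPM against the summed CPM of 9 neutrophil markers, both on log scales, with 1 point per library (D55 open, D105 filled, colours by group). Within the D55 range of the sum, 9 of 10 D105 points for *C5AR1* and 8 of 10 for *CXCR2* lie above every D55 point. The share of all genes with such counts was not computed. The D105 library of 637 is at the far right with 11210 CPM.

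Markers of other cell types were measured in the same way. By the quasi-likelihood test, none of the 5 monocyte markers was called in IVP-Normal (median log2 fold change 0.41) or IVP-LOS (0.03), and their summed level had a median of 363 CPM on D55 and 364 CPM on D105 in IVP-Normal. No eosinophil, B cell, T cell, platelet, red cell or pan-leukocyte marker was called in either group by the quasi-likelihood test. Of the NK cell markers, *GZMB*, encoding a cytotoxic granule protease, was called in IVP-Normal (2.11, FDR 0.025) but not without 560 (0.0842), 628 (0.0715) or 688 (0.0965), and the other 4 were not called.

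Among the other chemoattractant receptors, 10 of 12 listed genes were in the table and 9 were tested. In IVP-Normal 2 were called higher on D105 and none lower. *GPR84*, a receptor of medium-chain fatty acids on phagocytes, went from a median of 1.03 to 4.94 CPM (log2 fold change 2.82, FDR 0.0136). *CCR1*, a receptor of CC chemokines, went from 45.6 to 130 CPM (1.77, FDR 0.0236). The *GPR84* call was lost without 560 (0.0513), 633 (0.0696) or 688 (0.0590), and the *CCR1* call without 560 (0.0871), 628 (0.0779), 633 (0.101) or 688 (0.123). With heifer as a block, 4 of the 9 were called. In IVP-LOS none was called by the quasi-likelihood test and 1 of 9 by DESeq2 (*CXCR4*, named after its value was seen), with values of 2.20 (FDR 0.184) for *GPR84* and 1.34 (FDR 0.440) for *CCR1*. These rested on heifer 637, without which they were 0.42 and 0.32. The 1 gene that DESeq2 called for the difference of day changes was *GPR84* (-2.51, FDR 0.0287).

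Of 16 tested genes for ligands and for the enzymes that make or break down the lipid mediators, 2 were called higher in IVP-Normal. They were *ALOX5* and *ALOX5AP*, which encode 5-lipoxygenase and its activating protein, the first steps of leukotriene synthesis. *ALOX5* had a lowest, median and highest value of 0.34, 0.88 and 2.72 CPM on D55 and of 3.85, 9.23 and 56.6 CPM on D105 (3.95, SE 0.73, FDR 0.0112). The days did not overlap. In IVP-LOS *ALOX5* was the only gene of this list called by the quasi-likelihood test (4.22, SE 0.67, FDR 0.00737), against 3 of 16 by DESeq2, with medians of 0.74 and 10.7 CPM. The *ALOX5* call was lost in IVP-Normal without 560 (0.0513) and in IVP-LOS without both 604 and 664 (0.0748). *ALOX5AP* had log2 fold changes of 2.13 (FDR 0.013) in IVP-Normal, where the call was lost without 628 (0.0597), 633 (0.0797) or 688 (0.0529), and of 1.94 (FDR 0.125; 0.90 without 637) in IVP-LOS, where the likelihood ratio test called it (FDR 0.0192).

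*CXCL8*, the gene of the main CXCR1 and CXCR2 ligand, went from a median of 22.7 to 82.8 CPM in IVP-Normal without passing the threshold (2.64, SE 0.67, FDR 0.0598), and had 0.63 (FDR 0.561; 0.35 without 637) in IVP-LOS. With heifer as a block, 7 of the 16 were called in IVP-Normal, among them *CXCL8* (FDR 0.0147), which was named after its value was seen. *CXCL8* was also called by the likelihood ratio test, by DESeq2, without the expression filter, and without 519 or 669.

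None of 20 genes of the signalling path below the receptors was called in either group by the quasi-likelihood test. The most abundant, *LYN*, a Src-family kinase, and *GNAI2*, a Gi protein subunit, had log2 fold changes of -0.03 (SE 0.11) and -0.05 (SE 0.11) in IVP-Normal. Of 11 kinases, arrestins and regulators that end receptor signalling, none was called by the quasi-likelihood test without the block. *RGS2*, a brake on G protein signalling, had 3.55 (SE 1.03, FDR 0.105) in IVP-Normal and 2.02 (FDR 0.293) in IVP-LOS, and with heifer as a block it was called in both (FDR 0.00118 and 0.0247). It was named after its value was seen. Without the block it was called by both other tools in IVP-Normal and without 669 (0.0104). The abundant *ARRB1*, a beta-arrestin, and *GRK2*, a receptor kinase, had -0.36 (FDR 0.260) and 0.06 (FDR 0.846). Of 6 genes of the phagocyte oxidase, *NCF1*, which encodes a cytosolic subunit, was called in IVP-Normal (1.26, FDR 0.0228) and none in IVP-LOS. The *NCF1* call was lost without 560 (0.0839), 628 (0.110), 633 (0.0640) or 688 (0.0641).

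The D105 levels of heifers 604 and 664, which carried the largest fetuses, were compared with the other 13 IVP heifers. The paper focused on this pair also because their leukocyte transcriptomes stood apart in its clustering. The comparison is therefore not independent of expression in these libraries. All 7 receptor genes had log2 fold changes below 0, as did 52.3% of genes, and *LTB4R* was called (-2.25, SE 0.64, FDR 0.0487), where 2.1% of the 16555 genes tested were called lower and 6.44% in either direction. *LTB4R* stood at 0.47 CPM in 604 (8 reads) and 0.87 CPM in 664 (16 reads), below all other IVP heifers (1.13 to 5.25 CPM). For *CXCR2* the pair had 20.3 and 17.7 CPM, also below all others (23.1 to 852 CPM), with -3.76 (SE 1.26, FDR 0.0739). Both heifers below every other IVP library held for 6.79% of genes on D105.

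The pair had 5.64 and 6.12 CPM of *C5AR2* (others 6.05 to 246 CPM, log2 fold change -3.63, FDR 0.0729) and 8.20 and 6.56 CPM of *CXCR1* (others 3.99 to 403 CPM, -4.00, FDR 0.0835). *C5AR1*, at 113 and 125 CPM, lay within the others (66.0 to 1085 CPM, -1.48, FDR 0.334), as did *PTAFR* at 73.2 and 58.2 CPM (28.1 to 857 CPM, -1.84, FDR 0.236). *C3AR1* had 7.39 CPM in 604 and 0.98 CPM in 664 (3.94 to 24.6 CPM in the others). The *LTB4R* call was lost when 604 (FDR 0.256) or 664 (FDR 0.174) was left out and without the expression filter (FDR 0.0598). With edgeR's likelihood ratio test, with DESeq2 or against all 21 other heifers, *C5AR2*, *CXCR1*, *CXCR2* and *LTB4R* were called. Of all genes, the first and second of these settings called 1774 and 2485 of 16555 and the third called 3550 of 16841.

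The summed neutrophil markers of 604 and 664 on D105 were 306 and 382 CPM, against 670 to 11210 CPM in the other IVP heifers. The monocyte markers had 85.2 to 97.5 CPM in the pair and 193 to 1664 CPM in the others, and *CSF1R*, the receptor of macrophage colony-stimulating factor, was called lower (-2.37, FDR 0.0395), as was *VCAN* (-3.17, FDR 0.0366). Platelet *PF4* (2.39, FDR 0.045) and the B cell gene *PAX5* (0.87, FDR 0.0266) were called higher. The genes *CSF1R*, *VCAN*, *PF4* and *PAX5*, named after their values were seen, were not called with either heifer left out except *PF4* without 664 (FDR 0.0356). *PF4* had -0.0824 without 604 and was not called without the expression filter (FDR 0.0562). Red cell markers summed to 140 and 603 CPM in the pair and to 11.2 to 152 CPM in the others. The part of these markers and of the low read totals in the receptor values was not tested. On D55 the same pair had no receptor gene called (0.0121% of 16488 genes were), with all 7 log2 fold changes below 0 (50.6% of genes) and *C5AR1* at 13.2 and 16.1 CPM against 9.64 to 86.9 CPM.

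**Figure D5:**
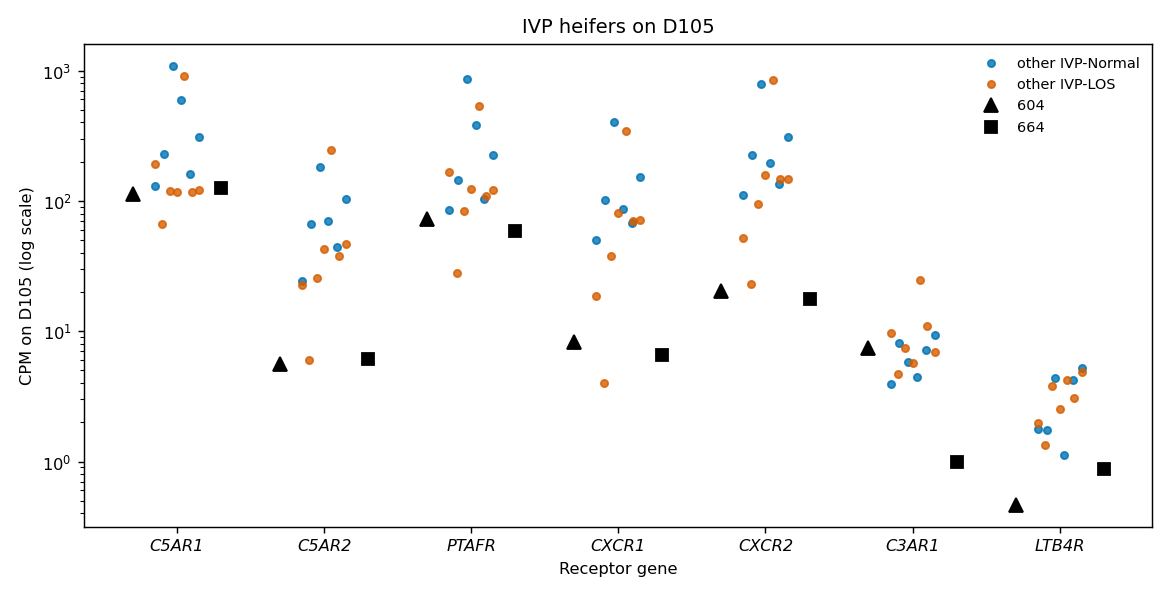
CPM on D105 on a log scale for the 7 receptor genes in IVP heifers, with 604 (triangle) and 664 (square) in black and the other 13 heifers coloured by group. The pair lies below every other heifer for *LTB4R* and *CXCR2* and inside their range for *C5AR1* and *PTAFR*.

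Across the 46 libraries, which come in pairs from 23 heifers and share the day difference, the receptor genes followed each other to different degrees. The libraries include those of AI, whose day change chose *C5AR1* and *PTAFR*, so r between them is a description only. Pearson's r of log2(CPM + 1) with *C5AR1* was 0.92 for *PTAFR*, 0.91 for *C5AR2*, 0.91 for *CXCR1* and 0.92 for *CXCR2*, but -0.07 for *C3AR1* and -0.01 for *LTB4R*. Within the 23 D105 libraries, in which the day difference plays no part, r with *C5AR1* was 0.95 for *PTAFR* and 0.83 for *C5AR2*. It was 0.76 for *CXCR1*, 0.78 for *CXCR2*, 0.38 for *C3AR1* and 0.35 for *LTB4R*. Within the 23 D55 libraries it was 0.70 for *PTAFR*, 0.76 for *C5AR2*, 0.71 for *CXCR1* and 0.83 for *CXCR2*. *C3AR1* had 0.15 and *LTB4R* 0.40 there. *CXCR1* and *CXCR2* had r = 0.98 with each other on D105 and 0.94 on D55.

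Among 13592 genes with at least 1 CPM in 23 or more libraries, the 5 most like *C5AR1* were *SLC45A4* (r = 0.95), *LOC101903832* (0.95), *DGAT2* (0.95), *UPP1* (0.94) and *TARM1* (0.94). *DGAT2* encodes an enzyme of triglyceride synthesis and *UPP1* uridine phosphorylase. *DGAT2* went from a median of 11.2 to 207 CPM in IVP-Normal and from 4.01 to 73.7 CPM in IVP-LOS. The 5 most like *PTAFR* were *SLC45A4* (0.95), *EHD1* (0.95), *MCTP2* (0.94), *DHX34* (0.94) and *NYX* (0.94). *EHD1*, which encodes a protein of endosomal recycling, had r = 0.97 with *PTAFR* on D105 and 0.43 on D55. On D55 r with *PTAFR* was 0.83 for *SLC45A4*, 0.60 for *MCTP2*, 0.51 for *DHX34* and 0.56 for *NYX*. On D105 it was 0.94, 0.92, 0.92 and 0.92. The genes most like *C5AR1* had r with it on D55 between 0.74 (*UPP1*) and 0.82 (*DGAT2*). Both rankings used all 46 libraries, which share the day difference and include the AI libraries that chose *C5AR1* and *PTAFR*. *DHX34* overlaps *C5AR2*, and *EYA3* overlaps *PTAFR*, by the RefSeq annotation of ARS-UCD2.0, and reads in a shared stretch cannot be assigned to 1 gene where strand is not used.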

How the data were processed

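RNA of maternal leukocytes was measured in 46 libraries of 23 heifers on D55 and D105. The authors trimmed reads, aligned them to ARS-UCD1.2 with HISAT2 2.1.0 and deposited raw read counts per gene from HTSeq, of which the table on NCBI genes was used. Whether counting used strand is not given in the sources used here. The deposited counts included summary rows for reads on no gene, which held 36.5% to 48.6% of all reads and were left out. A second deposited table on Ensembl identifiers was not used, since no table here pairs these with symbols.

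Counts were scaled by TMM, filtered with filterByExpr (minimum count 10) and tested with the quasi-likelihood test of edgeR 4.0.16 in R 4.3.3, using only the groups compared. P-values were adjusted by Benjamini-Hochberg over all genes tested, and an FDR of at most 0.05 was called. The SE is the absolute log2 fold change divided by the square root of F. DESeq2 1.42.0 was an alternative. Tests run on simulated counts of IVP-Normal (15248 genes, 200 changed) recovered 64% of 2-fold and 92% of 4-fold changes. The simulated libraries were independent, without pairs from a heifer, and the 200 genes were drawn from all genes. Recovery for genes as variable as the receptors was not estimated. Read totals of 18692653 to 24502012 set the counting error, which does not cover variation between heifers.

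Replicate numbers are heifer numbers from the labels, so both days of a heifer come from the same animal. Over 13592 genes, deviations from group means correlated between days of a heifer with mean r = 0.536 and were above 0.1 in all 23. The fits reported have no block, and fits with heifer as a block were an alternative. Single heifers were left out without the block, and with it only 637 in IVP-LOS. The fits of different groups against the same group share libraries.

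The receptor genes and all gene lists were chosen with earlier results of these data known. Of each other list, genes called in IVP-Normal or IVP-LOS were named, at most 4, or else the 2 most abundant. Other alternatives were edgeR's likelihood ratio test, upper-quartile scaling, no filter and leaving out single heifers. The heifer-block fit without 637 and the calgranulin reference were added after the data were seen.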

Additional observations from a re-analysis of the deposited data

Results flagged for a closer look

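In 42 combinations of receptor gene, group and day, Dixon's criterion marked 17 values as far from the rest of their group. Its rate of about 1 in 20 groups by chance holds for independent, normally distributed values. CPM are skewed and the receptor genes follow each other, so the 17 cannot be set against that rate. On D105 in IVP-LOS, heifer 637 was highest and stood apart for *C5AR1* (915 CPM, next 191), *C5AR2* (246, next 47.0), *PTAFR* (531, next 167), *CXCR1* (342, next 80.5), *CXCR2* (852, next 159) and *C3AR1* (24.6, next 10.96). The same heifer was also apart on D55 for *C3AR1* (26.5 CPM, next 13.8) and *LTB4R* (7.01, next 3.99). Its summed neutrophil markers on D105 were 11210 CPM, and their part in these values was not tested.

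On D55, heifer 616 stood apart in IVP-LOS for *C5AR2* (24.0 CPM, next 9.35), *CXCR1* (43.5, next 11.2) and *CXCR2* (83.6, next 32.5). Heifer 669 did so in IVP-Normal for *C5AR2* (24.1 CPM, next 10.1), *CXCR1* (34.4, next 6.02) and *CXCR2* (75.6, next 27.0). On D105, heifer 628 stood apart in IVP-Normal for *CXCR1* (403 CPM, next 152) and *CXCR2* (788, next 307). In AI, heifer 546 had the highest *C3AR1* level on D105 (24.8 CPM, next 10.2).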

How the results depend on the processing

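For the day change in IVP-Normal, 5 receptor genes were called under every alternative test, scaling and filter and with heifer as a block, and 0 to 5 when single heifers were left out. In IVP-LOS 1 was called, against 5 with edgeR's likelihood ratio test, 4 with DESeq2, 0 without 604 and 664, and 0 to 3 when single heifers were left out. The replicate block kept that count at 1, with C5AR1 at FDR 0.0125, and also without 637, an alternative chosen after seeing the data (FDR 0.0166). For 604 and 664 on D105, 1 gene was called, against 4 with edgeR's likelihood ratio test, 4 with DESeq2, 4 against all 21 other heifers, 0 without the filter and 0 when either heifer was left out. The cause was not tested.

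Over all genes, the block moved the calls of the AI day change from 1517 to 2603, of IVP-Normal from 374 to 838 and of IVP-LOS from 38 to 162. The likelihood ratio test and DESeq2 gave 613 and 748 in IVP-Normal, 227 and 336 in IVP-LOS, and 1774 and 2485 for the pair on D105 (1066 with the quasi-likelihood test, 670 without the filter, 3550 against all 21). Against AI they gave 3 and 15 (IVP-Normal, D55), 3 and 3 (IVP-Normal, D105), 1 and 1 (IVP-LOS, D55), and 11 and 43 (IVP-LOS, D105), where the quasi-likelihood test gave 0.

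Of the values for single receptor genes, 446 kept direction and side of the threshold, 25 lost a call, 18 gained one and 14 changed sign, none of the last called. Leaving out single heifers, the LTB4R day change in IVP-Normal ranged from -0.19 to 0.15, with the sign changed without 560 (0.10) and 633. For the difference of day changes C3AR1 changed sign with the replicate block (-0.10) and without 519, 633, 637 or 656 (range -0.17 to 0.23). CXCR1 (range -2.10 to 0.78) and CXCR2 (range -1.56 to 0.11) did so without 616 or 628. Without 604 and 664, IVP-LOS relative to IVP-Normal gave 0.0242 for CXCR2 and 0.0315 for PTAFR on D55 and 0.0301 for LTB4R on D105. With the calgranulins alone as reference, also chosen after seeing the data, the median C5AR1 change was 2.05 and the change was above 0 in 15 of 15 IVP heifers for C5AR1 and CXCR1, 14 for C5AR2 and CXCR2, and 12 for PTAFR. Of the genes outside the receptors, GNAI2 (range -0.0894 to 0.0147), LYN (-0.0793 to 0.0085) and GRK2 (-0.0534 to 0.12) changed sign in IVP-Normal when single heifers were left out, PF4 ranged from -0.0824 to 3.28 for the pair without 604 or 664, and CCR1 in IVP-LOS had -0.19 with the block without 637. The Ensembl table and CSF3R alone as reference were not run, since no table used here pairs Ensembl identifiers with symbols and *CSF3R* has no row by that symbol.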
